A study of Mus musculus with 67 samples.

Results

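The 10 genes Trp63, Grhl2, Grhl3, Sp6, Sp8, En1, Epcam, Cdh1, Krt8 and Krt18 were taken by gene name from the 46983 gene IDs of each RNA-seq table, and each name matched 1 gene ID. They mark the surface ectoderm of the limb bud and the apical ridge that forms from it. RNA-seq libraries came from mouse forelimb buds of 4 groups: WT (n = 3) and Gli3-/- (n = 4) whole buds at E9.25 (21 to 23 somites), and WT (n = 4) and Gli3-/- (n = 3) anterior buds at E10.5 (32 to 35 somites). Per the methods, the Gli3-/- embryos carried the Gli3Xt-J allele, a germline null that every cell of the embryo shares, on a Swiss Webster background, which is also the strain named for the WT libraries. The labels give about 4 pairs of buds per E9.25 library and 2 pairs of anterior buds per E10.5 library, whereas the methods describe pools of like size at both stages. Per the methods, buds came from more than 1 litter, but no source ties litters to libraries, and the p-values measure the spread between these pools. Age and the part of the bud that was dissected differed together between the stages and cannot be told apart.

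The limb bud consists of mesenchyme covered by a thin sheet of ectoderm, and the rim of this sheet thickens into the apical ectodermal ridge. The ridge secretes FGFs that maintain the underlying mesenchyme, which in turn signals back with FGF10. TRP63 is the regulator on which stratified epithelium and a functional ridge depend, SP6 and SP8 act downstream of WNT signalling to form the ridge, and EN1 specifies the ventral ectoderm and limits WNT7A to the dorsal side. GLI3, which represses Hedgehog target genes in the absence of a Hedgehog signal, is expressed mainly in the mesenchyme. In whole tissue, fewer cells of a type and less RNA per cell cannot be told apart.

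Transcripts of all 10 genes were detected in each of the 14 libraries, and all 10 passed the filter on low values in every comparison. Libraries held an estimated 38.1 to 56.8 M reads, so that a level of 1 TPM (transcripts scaled for gene length and library size) equalled 20.7 to 29.3 reads per kilobase. Limb mesenchyme markers (Prrx1, Prrx2, Tbx5, Fgf10, Lmx1b, Msx1 and Twist1) summed to 669 to 1094 TPM per library, against 134 to 382 TPM for the 10 ectoderm genes. Gli3 was at 44.2, 15.8 and 44.6 TPM in the E9.25 WT libraries and at 14.3 to 20.8 TPM in the E9.25 Gli3-/- libraries, so that the library labelled WT replicate 2 lay within the Gli3-/- range. At E10.5, Gli3 was at 73.4 to 89.7 TPM in WT and at 38.7 to 40.9 TPM in Gli3-/- libraries. The library labelled E9.25 WT replicate 2 was also the one of its group in which all 10 ectoderm genes lay below the group mean, by a median of 0.41 on the log2 scale, where the median of all tested genes lay 0.13 below. The E9.25 genotype, WT stage and interaction results use this library. Their values without it are given where the library changes a call or moves a value much, and for the groups of other genes as counts.

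To show the DNA from which 4 of the genes are transcribed, the 250 bases before the RefSeq start (GRCm38.p6) are printed 5′ to 3′ on the strand of the gene for the genes whose levels differed most between groups or that are used as the measure of epithelium. Epcam lies at chr17:87635729-87635978 (plus strand), Krt8 at chr15:102004343-102004592 (minus), Krt18 at chr15:102027966-102028215 (plus) and Grhl3 at chr4:135573633-135573882 (minus). Capitals mark exact matches on either strand to ACCGGT (the core bound by Grainyhead-like proteins), CAGGTG (an E-box bound by ZEB and SNAIL repressors of epithelial genes, CACCTG when on the other strand) and GGGCGG (the GC box of SP-family factors, CCGCCC on the other strand).
Epcam: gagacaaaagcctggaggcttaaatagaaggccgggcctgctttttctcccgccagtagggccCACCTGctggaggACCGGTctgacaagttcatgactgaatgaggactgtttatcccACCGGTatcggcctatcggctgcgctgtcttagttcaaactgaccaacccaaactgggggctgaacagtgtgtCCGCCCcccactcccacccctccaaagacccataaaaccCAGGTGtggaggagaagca
Krt8: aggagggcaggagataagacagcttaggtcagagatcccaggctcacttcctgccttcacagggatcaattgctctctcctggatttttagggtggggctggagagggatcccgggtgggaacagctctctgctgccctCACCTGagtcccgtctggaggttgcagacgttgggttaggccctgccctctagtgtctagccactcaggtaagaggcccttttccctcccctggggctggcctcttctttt
Krt18: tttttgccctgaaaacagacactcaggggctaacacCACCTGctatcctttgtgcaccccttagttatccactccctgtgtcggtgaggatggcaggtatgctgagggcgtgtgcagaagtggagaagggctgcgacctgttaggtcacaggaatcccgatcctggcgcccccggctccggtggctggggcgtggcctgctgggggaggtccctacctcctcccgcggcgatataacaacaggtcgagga
Grhl3: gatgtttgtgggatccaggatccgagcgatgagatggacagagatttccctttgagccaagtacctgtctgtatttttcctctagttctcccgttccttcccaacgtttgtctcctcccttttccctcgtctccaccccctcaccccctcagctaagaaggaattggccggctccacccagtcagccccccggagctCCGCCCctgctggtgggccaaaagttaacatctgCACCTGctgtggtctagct

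Of 32851 mouse promoter windows of this length, 1.86% held ACCGGT, 17.2% CAGGTG and 32.7% GGGCGG. Epcam held ACCGGT at 2 places, 174 to 169 and 131 to 126 bases before the start, and none of the other 3 windows held it. CAGGTG was present in all 4 windows, 2 times in Epcam and 1 time each in Krt8, Krt18 and Grhl3, and GGGCGG was present in Epcam and Grhl3. Krt8 and Krt18 are transcribed away from each other, from starts 23874 bp apart. The reference gave 8 windows for 6 of the 10 genes. Those of Sp8 and En1 were not printed and held neither the E-box nor the Grainyhead-like core. The E-box was thus not shared by all 6 genes. The GC box was present in 1 window of Sp8 and not in that of En1. These matches describe letters, not binding.

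In E9.25 WT buds the highest mean levels were those of Krt8 (35.3 ± 13.9 TPM, SD, n = 3), Krt18 (35.2 ± 11.2), Sp6 (31.9 ± 8.19) and Epcam (31.1 ± 10.8), and the ranges of these 4 genes overlapped. Grhl3 was lowest, at 1.61 ± 0.905 TPM, below Grhl2 (4.87 ± 1.30) in each of the 3 libraries. In the anterior E10.5 WT bud the order was led by Epcam (40.5 ± 4.12 TPM, n = 4), which was above Krt18 (27.9 ± 2.46) in each of the 4 libraries, and En1 was lowest at 6.42 ± 1.53 TPM. In the E9.25 Gli3-/- buds the order was led by Krt18 (104 ± 37.4 TPM, n = 4) and Krt8 (96.7 ± 39.2), and each was above Epcam (32.4 ± 0.438) in each of the 4 libraries.

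**Figure D1:**
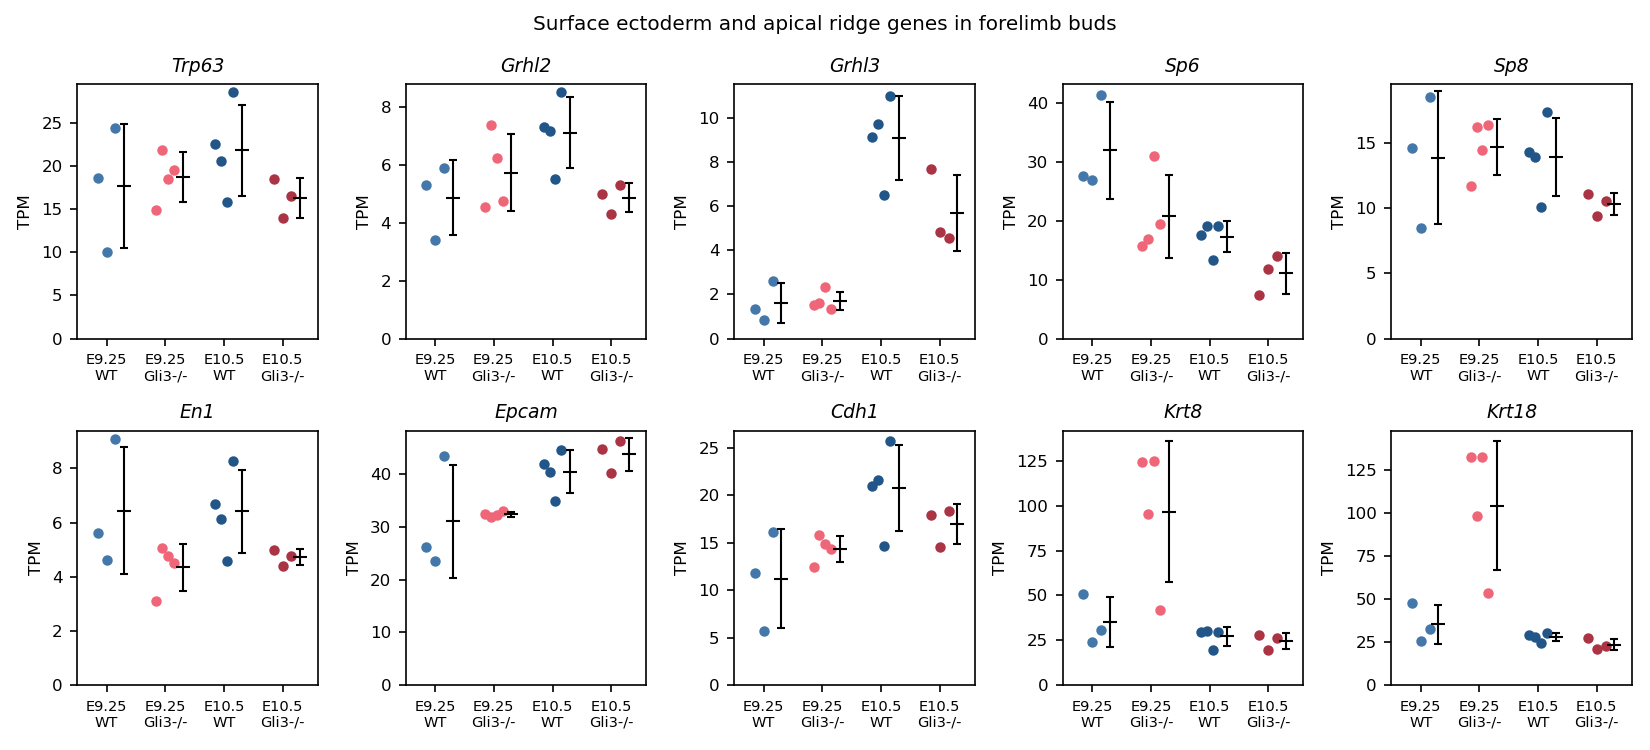
TPM of the 10 genes in each of the 14 libraries (points), in the 4 groups on the horizontal axis, with the mean and SD beside the points. Krt8 and Krt18 are high in 3 of the 4 E9.25 Gli3-/- libraries, Grhl3 is higher in each E10.5 library than in any E9.25 library, and the mean of Sp6 is highest in the E9.25 WT group.

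Whether loss of Gli3 altered these genes was asked first at E9.25, before Hedgehog signalling starts in the limb. None of the 10 genes passed an adjusted p of 0.05 in limma (Benjamini-Hochberg over 14760 genes), where 0.136% of all genes did, and 3 of the 10 (Krt8, Krt18 and Sp6) were under an unadjusted p of 0.05, as were 22% of all genes. The median difference of the 10 genes was 0.14 on the log2(TPM + 1) scale, and that of all genes was 0.23. With the library labelled WT replicate 2 left out, these medians were -0.0885 and 0.141. At E10.5, in the anterior bud, again none of the 10 passed, against 4.77% of all genes. There, 9 of the 10 were lower in Gli3-/- than in WT, with a median of -0.36 against -0.02 over all genes, and 5 (Sp6, Sp8, Krt18, Grhl2 and Grhl3) were under an unadjusted p of 0.05, against 19.6% of all genes. Groups did not overlap for Krt18 at E9.25, higher in Gli3-/- as in 9.97% of all genes, and for Grhl2 at E10.5, lower as in 11.5% of all genes. Under median-of-ratios or quantile scaling, 5 of the E9.25 differences (Trp63, Sp8, Epcam, Grhl2 and Grhl3), all near 0, turned negative.

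Between E9.25 and the anterior E10.5 bud, 3 of the 10 genes passed in WT (48.7% of all genes did) and 6 of the 10 in Gli3-/- (25% did). Grhl3 and Cdh1 rose in WT, as 38.1% of all genes did, and Sp6 fell, as 10.6% did. In Gli3-/-, Grhl3 and Epcam rose (15.8% of all genes) and Krt8, Krt18, Sp6 and Sp8 fell (9.17%). Groups did not overlap for Grhl3 (higher, as 41.5% of all genes) and Sp6 (lower, as 12%) in WT, and for Epcam and Grhl3 (higher, as 22.3%) and Sp6, Sp8, Krt8 and Krt18 (lower, as 13.4%) in Gli3-/-. In WT the median tested gene was itself 0.34 higher at E10.5, so differences in WT are also given relative to it. Under median-of-ratios or quantile scaling this median was 0.02 or 0.03, Krt8 and Krt18 fell in WT as well, and the Cdh1 call was lost. In the interaction of stage and genotype, 1 of the 10 genes passed, Krt18, whose difference was negative (2.13% of all genes passed, 1.65% with a negative difference).

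**Figure D2:**
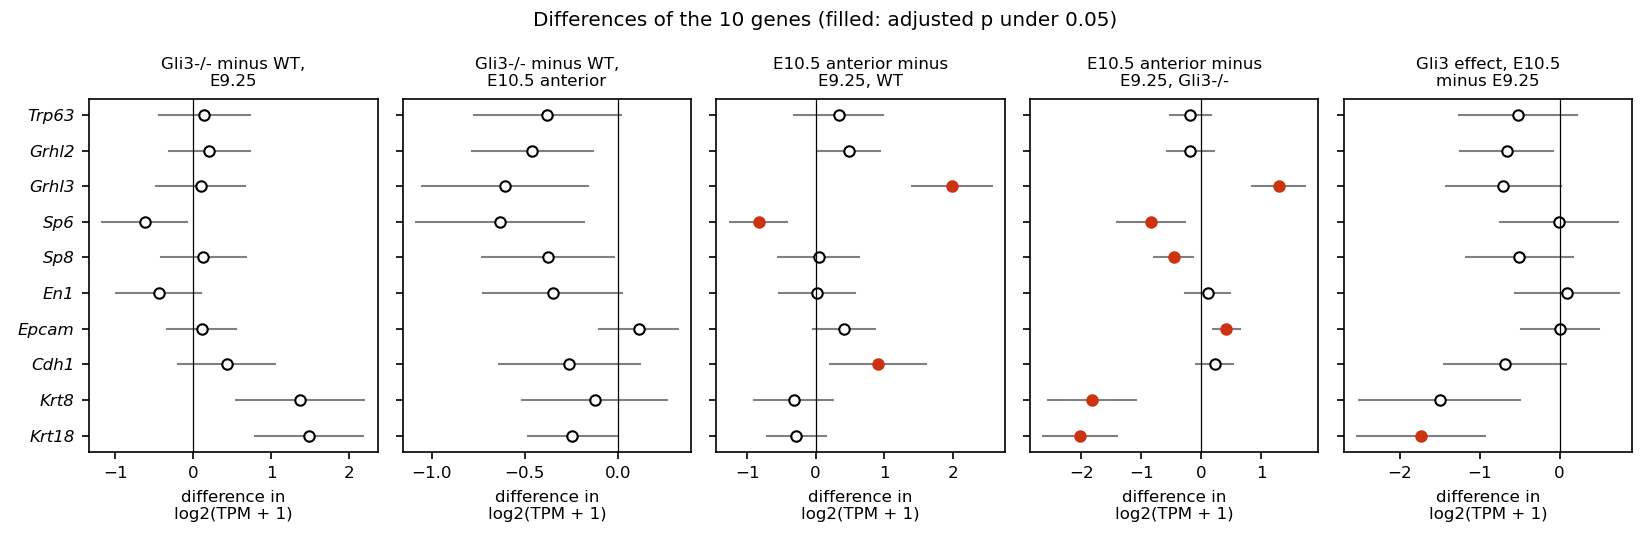
Difference in log2(TPM + 1) of the 10 genes in the 2 genotype comparisons, the 2 stage comparisons and the difference between the genotype effects at E10.5 and E9.25 (panels, left to right). Points are the limma estimates with 95% confidence intervals, and filled points passed an adjusted p of 0.05: none in the genotype panels, 3 and 6 in the stage panels, and Krt18 alone in the last.

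Krt8 and Krt18 encode the keratin pair of simple epithelia, whose proteins assemble into filaments only together. Krt8 (chr15:101996711-102004342, minus strand) was at 50.9, 24.1 and 30.9 TPM in the E9.25 WT libraries and at 125, 95.3, 125 and 41.8 TPM in the Gli3-/- libraries. Krt18 (chr15:102028216-102032026, plus strand) was at 47.5, 25.8 and 32.4 TPM in WT and at 132, 98.2, 132 and 53.1 TPM in Gli3-/-. Gli3-/- replicates 1, 2 and 3 stood well above every WT library for both genes, and replicate 4 lay close to WT replicate 1. At E10.5, Krt8 was at 29.5, 30.4, 19.3 and 29.7 TPM in WT and at 28.2, 19.8 and 26.2 TPM in Gli3-/-. Krt18 was at 28.8, 28.1, 24.5 and 30.3 TPM in WT and at 26.998, 21.0 and 22.5 TPM in Gli3-/-, and the groups overlapped for both genes.

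At E9.25 the fitted difference was 1.49 ± 0.31 (SE, log2 scale) for Krt18 (limma, adjusted p = 0.13) and 1.38 ± 0.37 for Krt8 (adjusted p = 0.206). Without Gli3-/- replicate 4 both passed (Krt18 1.78, adjusted p = 0.0238, and Krt8 1.73, adjusted p = 0.0249), and without WT replicate 1 Krt18 passed (1.72, adjusted p = 0.0392). Without the library labelled WT replicate 2 neither passed (Krt18 1.29, adjusted p = 0.275, and Krt8 1.14, adjusted p = 0.414), nor did they without it and Gli3-/- replicate 1 together. Between the stages both genes fell in Gli3-/-, Krt18 by 2.02 ± 0.28 (adjusted p = 0.00053) and Krt8 by 1.82 ± 0.33 (adjusted p = 0.00281), and these calls held with each library left out. In WT the same differences were -0.28 for Krt18 (adjusted p = 0.231) and -0.32 for Krt8 (adjusted p = 0.307). With E9.25 WT replicate 2 left out Krt18 also fell in WT, by 0.48 ± 0.16 (adjusted p = 0.0341), and Krt8 differed by -0.55 (adjusted p = 0.0733). The effect of losing Gli3 on Krt18 was lower at E10.5 than at E9.25 by a difference of -1.74 ± 0.38 (limma interaction, adjusted p = 0.0262), and for Krt8 by -1.50 ± 0.47 (adjusted p = 0.116). The Krt18 call held in 6 of the 14 fits that left out 1 library. It was lost (adjusted p at most 0.0794) without E9.25 WT replicate 2 or 3, E9.25 Gli3-/- replicate 2 or 3, E10.5 WT replicate 1 or 4, or E10.5 Gli3-/- replicate 2 or 3.

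Sums of markers of several other tissues differed between the genotypes at E9.25, and those of flank mesoderm followed these keratins in part. The 4 flank mesoderm genes Foxf1, Gata4, Gata6 and Hand1 summed to 50.5, 18.8 and 17.4 TPM in the WT libraries and to 125, 182, 196 and 65.1 TPM in the Gli3-/- libraries, none of them being at 0 in a whole group. Gli3-/- replicate 4 was thus the lowest of its group in both keratins and in the flank markers, and WT replicate 1 was the highest of its group in all 3. The same libraries were the lowest and the highest of their groups in the mesothelium sum given below. Other libraries were ordered differently. Gli3-/- replicate 2 had a higher flank sum than replicate 1 but less of both keratins, and WT replicate 3 had a lower flank sum than replicate 2 but more of both keratins. Foxf1 (difference 3.68 ± 0.43, adjusted p = 0.0125) and Gata4 (2.87 ± 0.35, adjusted p = 0.0128), both regulators of lateral mesoderm, rose in Gli3-/-. This was 2 of 4 genes, where 0.136% of all genes passed and 22% were under an unadjusted p of 0.05. The list was chosen with earlier results of these data known, and the paper names Foxf1 among the genes upregulated in early Gli3-/- limbs. The count is therefore not independent of those results. The 5 mesothelium genes, which mark another keratin-bearing epithelium, summed to 6.92 to 13.5 TPM in WT and 11.3 to 20.9 TPM in Gli3-/-, with Msln at 0 in all Gli3-/- libraries and none of the 3 tested genes passing (1 was under an unadjusted p of 0.05). The 9 endoderm and yolk sac genes summed to 1.44 to 4.99 TPM in WT and 5.00 to 221 TPM in Gli3-/-, Foxa2, Hnf4a and Apoa4 being at 0 in all WT libraries and the highest sum being that of Gli3-/- replicate 1, with Afp at 90.2, Apoa1 at 71.4 and Ttr at 44.0 TPM. The 4 nephric genes, of a further keratin-bearing epithelium, summed to 3.63 to 6.06 TPM in WT and 6.41 to 11.3 TPM in Gli3-/- (neither of the 2 tested passed, and both were under an unadjusted p of 0.05). Gata3 made up most of these sums, and Pax2 and Pax8 were at 0.393 TPM at most. The 5 endothelium genes summed to 42.9 to 69.4 TPM in WT and 84.3 to 131 TPM in Gli3-/- (0 of 5 passed, 4 under an unadjusted p of 0.05). The 6 neural genes summed to 2.73 to 4.60 TPM in Gli3-/- and to 5.99 to 12.4 TPM in WT. Nearly all of this was Tubb3, the 1 neural gene tested, which did not pass. It was at 5.52, 9.095 and 12.2 TPM in WT and at 2.32 to 4.49 TPM in Gli3-/-. The sums of the blood and the somite and muscle genes overlapped between the genotypes. Most of the somite and muscle sum was Meox1, whereas Lbx1 was at 1.60 to 2.76 TPM in WT and 0.203 to 0.692 TPM in Gli3-/-. Pax3 was at 0.615 to 1.23 TPM in WT and 0 to 0.512 TPM in Gli3-/-, and neither of the 2 tested genes of this list passed. At E10.5 the flank markers summed to 3.28 TPM at most. The part of these tissues in the keratin values was not tested. Cdh1 and Epcam, which such epithelia can share with the ectoderm, differed by 0.43 and 0.11 at E9.25 (adjusted p = 0.339 and 0.73). With the library labelled WT replicate 2 left out, they differed by 0.047 and -0.057 (limma, adjusted p = 0.911 and 0.892).

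**Figure D3:**
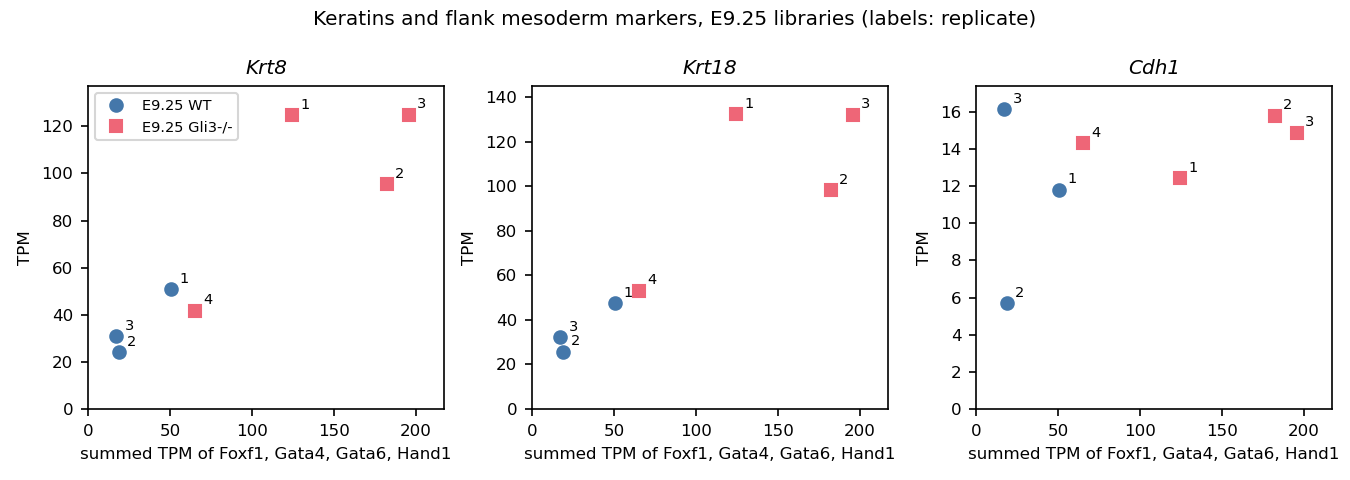
TPM of Krt8, Krt18 and Cdh1 (vertical axes) against the summed TPM of Foxf1, Gata4, Gata6 and Hand1 (horizontal axes) in the 7 E9.25 libraries, with replicate numbers beside the points. The 3 Gli3-/- libraries with sums of 125 to 196 TPM have the highest Krt8 and Krt18, whereas WT replicate 3, with a sum of 17.4 TPM, has the highest Cdh1.

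The remaining keratins of the surface followed several patterns. Krt19, a partner of KRT8 in simple epithelia, was at 31.1, 16.5 and 21.2 TPM in E9.25 WT and at 43.4, 38.7, 53.6 and 30.3 TPM in E9.25 Gli3-/- libraries (0.84 ± 0.24, adjusted p = 0.207). At E10.5 it fell in Gli3-/- by 1.10 ± 0.12 (adjusted p = 0.00119), from 10.2 to 13.1 TPM in WT to 4.57 to 5.61 TPM. Krt5, the basal keratin of stratified epithelium, rose between the stages in WT by 1.74 ± 0.31 (adjusted p = 0.00289) and in Gli3-/- by 2.17 ± 0.16 (adjusted p = 9.86e-06), as did its partner Krt14 (1.09 and 1.62). Of the 6 other keratins, 4 rose and 1 fell between the stages in WT (38.1% and 10.6% of all genes), the same counts as with E9.25 WT replicate 2 left out. In Gli3-/- 3 rose and 1 fell (15.8% and 9.17% of all genes).

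Grhl3 and Grhl2 encode Grainyhead-like factors that promote epithelial junctions and barrier formation, and Grhl3 had the largest stage difference of the 10 genes in WT. Grhl3 (chr4:135541888-135573630, minus strand) was at 1.35, 0.857 and 2.61 TPM in E9.25 WT and at 1.53, 1.62, 2.32 and 1.34 TPM in E9.25 Gli3-/- libraries. In the anterior E10.5 bud it was at 9.13, 9.74, 6.53 and 11.0 TPM in WT and at 7.68, 4.83 and 4.55 TPM in Gli3-/-. Each E10.5 library was above every E9.25 library, and among the E10.5 libraries only Gli3-/- replicate 1 exceeded the lowest WT value. Grhl3 rose by 1.99 ± 0.26 in WT (limma, adjusted p = 0.000678), 1.65 relative to the median gene, and by 1.29 ± 0.20 in Gli3-/- (adjusted p = 0.00117), and both calls held with each library left out. The stage differences of the 2 genotypes differed by -0.70 ± 0.34 (adjusted p = 0.246), and the E10.5 genotype difference was -0.61 ± 0.20 (adjusted p = 0.131).

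Grhl2 (chr15:37233036-37363569, plus strand) was at 5.31, 3.41 and 5.89 TPM in E9.25 WT and at 4.55, 7.41, 6.23 and 4.77 TPM in E9.25 Gli3-/- libraries. At E10.5 it was at 7.30, 7.17, 5.51 and 8.54 TPM in WT and at 5.00, 4.31 and 5.32 TPM in Gli3-/-. All 3 E10.5 Gli3-/- libraries lay below all 4 WT libraries, the lowest WT value being only slightly above the highest Gli3-/- value. This difference of -0.46 ± 0.14 (adjusted p = 0.117) did not pass, nor did the stage difference in WT of 0.48 ± 0.20 (adjusted p = 0.0777). The antisense gene Gm16136, which overlaps Grhl2, was at 1.83 to 4.70 TPM at E9.25, at 6.41 to 10.03 TPM in E10.5 WT and at 4.26 to 6.58 TPM in E10.5 Gli3-/- libraries, and whether reads were counted by strand is not given in the sources used here.

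Trp63 (chr16:25683763-25892102, plus strand) was at 18.6, 10.1 and 24.5 TPM in E9.25 WT and at 14.9, 21.8, 18.5 and 19.6 TPM in E9.25 Gli3-/- libraries. At E10.5 it was at 22.5, 20.5, 15.8 and 28.6 TPM in WT and at 18.5, 13.9 and 16.5 TPM in Gli3-/-. The groups overlapped in every comparison. The genotype difference was 0.14 (95% CI -0.44 to 0.73) at E9.25 and -0.38 (-0.78 to 0.02) at E10.5, and the stage difference in WT was 0.34, equal to the median gene. With E9.25 WT replicate 2 left out, the E9.25 genotype difference was -0.19 (limma, adjusted p = 0.603). The stage difference in WT was then 0.0035 (adjusted p = 0.99), below the median gene at 0.249.

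Cdh1 and Epcam encode E-cadherin and an epithelial adhesion molecule, the general measures of epithelium among the 10 genes. Cdh1 (chr8:106603351-106670246, plus strand) was at 11.8, 5.71 and 16.1 TPM in E9.25 WT and at 12.4, 15.8, 14.9 and 14.3 TPM in E9.25 Gli3-/- libraries. At E10.5 it was at 21.0, 21.7, 14.7 and 25.8 TPM in WT and at 17.97, 14.5 and 18.3 TPM in Gli3-/-. It rose between the stages in WT by 0.91 ± 0.31 (limma, adjusted p = 0.0376), 0.57 relative to the median gene, although E9.25 WT replicate 3 was above E10.5 WT replicate 3. The call held in 2 of the 7 fits that left out a library and was lost without E9.25 WT replicate 1 or 2 or E10.5 WT replicate 1, 2 or 4, the difference being 0.53 when WT replicate 2 of E9.25 was left out (adjusted p = 0.0651). In Gli3-/- the stage difference was 0.22 ± 0.14 (adjusted p = 0.262).

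Epcam (chr17:87635979-87651106, plus strand) was at 26.2, 23.6 and 43.4 TPM in E9.25 WT and at 32.4, 31.9, 32.4 and 32.97 TPM in E9.25 Gli3-/- libraries, which lay close together. At E10.5 it was at 42.0, 40.5, 34.9 and 44.7 TPM in WT and at 44.8, 40.3 and 46.3 TPM in Gli3-/-. It rose between the stages in Gli3-/- by 0.42 ± 0.10 (limma, adjusted p = 0.0126), without overlap of the groups, a call that was lost without E10.5 Gli3-/- replicate 1 (adjusted p = 0.0757) or 3 (adjusted p = 0.0849), with the replicate number as a block (0.0668) and in 1 model of all 14 libraries (0.0698). In WT the difference of 0.42 ± 0.20 did not pass (adjusted p = 0.106), but it did without E9.25 WT replicate 3 (0.68, adjusted p = 0.00772). Epcam was the 1 gene of the 10 with a higher mean in Gli3-/- than in WT at E10.5, by 0.11 (95% CI -0.10 to 0.32, adjusted p = 0.572).

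Sp6 and Sp8 encode the zinc finger factors on which ridge formation depends, and Sp6 was lower at the later stage in both genotypes. Sp6 (chr11:97013394-97024734, plus strand) was at 27.5, 26.9 and 41.4 TPM in E9.25 WT and at 15.7, 16.9, 30.9 and 19.3 TPM in E9.25 Gli3-/- libraries. In the anterior E10.5 bud it was at 17.6, 19.0, 13.4 and 19.1 TPM in WT and at 7.30, 11.8 and 14.1 TPM in Gli3-/-. All E10.5 libraries lay below the E9.25 libraries of the same genotype. Sp6 fell by 0.83 ± 0.19 in WT (limma, adjusted p = 0.0077), -1.17 relative to the median gene, and by 0.84 ± 0.25 in Gli3-/- (adjusted p = 0.0347). The WT call held with each library left out, whereas the Gli3-/- call was lost without E9.25 replicate 3 (adjusted p = 0.0645) or 4 (0.0632) or E10.5 replicate 1 (0.144) or 2 (0.0802), and with no filter on low values (0.103). The genotype differences of -0.62 ± 0.25 at E9.25 (adjusted p = 0.217) and -0.63 ± 0.20 at E10.5 (adjusted p = 0.12) did not pass. The antisense gene Gm11532, which overlaps Sp6, was at 9.91, 1.11 and 1.23 TPM in E9.25 WT and at 9.03, 22.1, 8.44 and 17.4 TPM in E9.25 Gli3-/- libraries. It was at most 0.26 TPM in all E10.5 libraries but Gli3-/- replicate 1, where it was at 6.62 TPM and where Sp6 was lowest. The part of this overlap in the Sp6 values was not tested.

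Sp8 (chr12:118846329-118852578, plus strand) was at 14.6, 8.45 and 18.5 TPM in E9.25 WT and at 11.7, 16.2, 14.4 and 16.4 TPM in E9.25 Gli3-/- libraries. At E10.5 it was at 14.3, 13.9, 10.04 and 17.4 TPM in WT and at 11.1, 9.40 and 10.51 TPM in Gli3-/-. WT libraries of the 2 stages overlapped, whereas the E10.5 Gli3-/- libraries lay below all E9.25 Gli3-/- libraries. Sp8 fell in Gli3-/- by 0.46 ± 0.15 (limma, adjusted p = 0.0439), a call that held in only 1 of the 7 fits with a library left out, the fit without E9.25 replicate 1 (adjusted p at most 0.165 in the others). It was also lost with no filter (adjusted p = 0.0675), with the replicate block (0.121) and in 1 model of all 14 libraries (0.146). In WT the difference was 0.04 (95% CI -0.55 to 0.64), and -0.25 with E9.25 WT replicate 2 left out (limma, adjusted p = 0.32).

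En1 (chr1:120602418-120607992, plus strand) was at 5.63, 4.62 and 9.08 TPM in E9.25 WT and at 3.10, 5.06, 4.76 and 4.51 TPM in E9.25 Gli3-/- libraries. At E10.5 it was at 6.69, 6.14, 4.57 and 8.28 TPM in WT and at 5.00, 4.41 and 4.78 TPM in Gli3-/-. The groups overlapped in all comparisons, and the genotype differences were -0.45 (95% CI -0.99 to 0.10) at E9.25 and -0.35 (-0.72 to 0.02) at E10.5.

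Since the levels of epithelial genes varied between libraries, Sp6, Sp8 and En1 were also set against a reference in the same library, the mean log2(TPM + 1) of 23 other epithelial genes that were at 1 TPM or more throughout. This reference averaged 3.15 in E9.25 WT, 3.38 in E9.25 Gli3-/-, 3.80 in WT and 3.64 in Gli3-/- libraries of E10.5. Differences over the reference were tested by exact two-sided permutation of the libraries, adjusted over the 12 tests, where 3 against 4 libraries cannot go below p = 0.0286. In this measure 7 of the 12 differences passed, each at this lowest p and so at an adjusted p of 0.049. The lowest p is reached when no other split of the libraries gives as large a difference. Its adjusted value depends on how many of the 12 tests reach it. The tests share libraries and the reference, so the 7 calls are not independent. The share of all genes that would pass in this measure was not computed. Sp6 was lower at E10.5 in WT (-1.48, from a range of 1.71 to 1.99 to a range of 0.274 to 0.582) and in Gli3-/- (-1.10), and lower in Gli3-/- than in WT at E10.5 (-0.47). Without E10.5 Gli3-/- replicate 1, the last difference was -0.17, whereas the En1 genotype difference at E9.25 lay between -0.74 and -0.60 whichever library was left out. Sp8 was lower at E10.5 in WT (-0.61) and in Gli3-/- (-0.71), the libraries of the stages not overlapping. With E9.25 WT replicate 2 left out, the WT stage differences were -1.42 for Sp6, -0.73 for Sp8 and -0.65 for En1, values with no test. En1 was lower at E10.5 in WT (-0.63) and lower in Gli3-/- than in WT at E9.25 (-0.68), with the WT libraries at -0.398 to -0.167 and the Gli3-/- libraries at -1.22 to -0.842. The 5 that did not pass were Sp6 at E9.25 between genotypes (-0.86, adjusted p = 0.0762 by exact permutation), Sp8 between genotypes at E10.5 (-0.22, 0.0762) and at E9.25 (-0.11, 0.514), and En1 between genotypes at E10.5 (-0.19, 0.137) and between stages in Gli3-/- (-0.14, 0.249). Since the reference itself was higher at E10.5, the stage differences describe a ratio to other epithelial genes and not a level per bud. The same holds for the genotype differences, as the reference was higher in Gli3-/- than in WT at E9.25 and lower at E10.5. Without the reference, the En1 genotype difference at E9.25 was -0.45, which did not pass, and the groups overlapped.

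**Figure D4:**
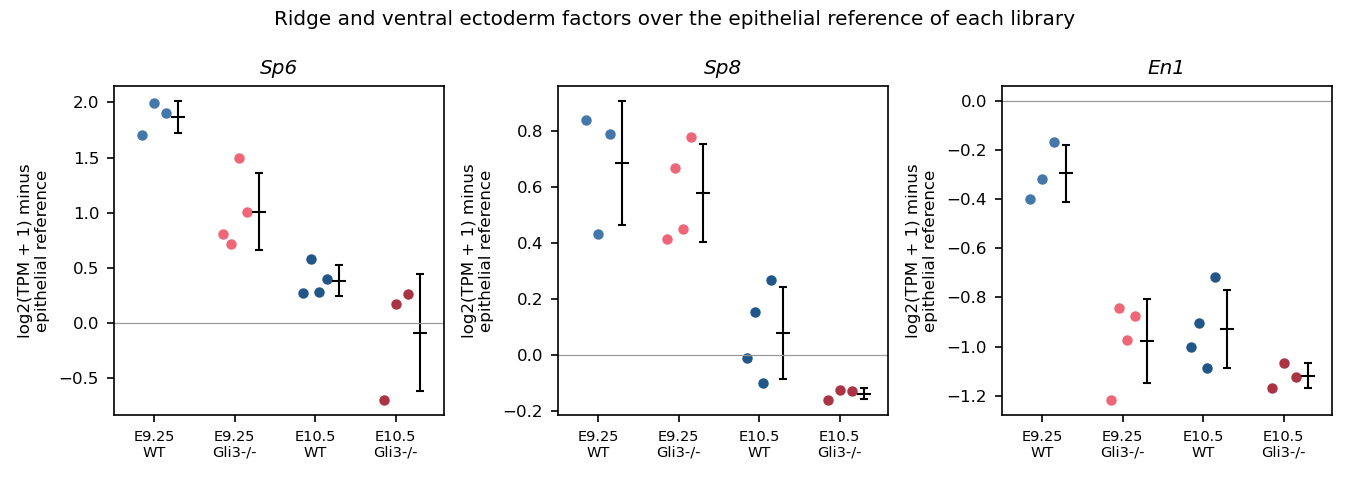
log2(TPM + 1) of Sp6, Sp8 and En1 minus the mean of 23 epithelial reference genes in the same library (points), in the 4 groups, with the mean and SD beside the points. Sp6 runs from 1.71 to 1.99 in E9.25 WT to -0.700 to 0.261 in E10.5 Gli3-/-, and En1 in E9.25 WT lies above all other libraries.

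The signals that the ridge sends were examined in the other genes of the pathway. Of 11 further ridge genes, 3 rose and 4 fell in Gli3-/- at E10.5, where 1.84% of all genes rose and 2.93% fell. None of the 9 tested passed at E9.25, where 3 were under an unadjusted p of 0.05, as were 22% of all genes. Their median difference at E9.25 was 0.0749, and -0.127 with E9.25 WT replicate 2 left out. Fgf8, the principal ridge FGF, was at 59.0, 50.4, 69.0 and 57.8 TPM in E10.5 WT and at 131, 157 and 171 TPM in E10.5 Gli3-/- libraries, and rose by 1.36 ± 0.12 (adjusted p = 0.000501). At E9.25 Fgf8 was at 40.3, 57.8 and 71.1 TPM in WT and at 18.3, 18.3, 17.6 and 36.6 TPM in Gli3-/- libraries, a difference of -1.31 ± 0.27 (adjusted p = 0.13). The effects of losing Gli3 on Fgf8 at the 2 stages differed by 2.67 ± 0.33 (limma interaction, adjusted p = 0.000732). With E9.25 WT replicate 2 left out the Fgf8 values were -1.27 at E9.25 (adjusted p = 0.248) and 2.63 for the interaction (adjusted p = 0.00237). Fgf9 and Rspo2 lay the other way at E9.25, without passing. Fgf9 was at 1.08 to 5.19 TPM in WT and 6.34 to 11.6 TPM in Gli3-/-, and Rspo2 at 12.9 to 18.9 and 23.8 to 37.0 TPM. For Rspo2 the effects of losing Gli3 at the 2 stages differed by -1.38 ± 0.21 (limma interaction, adjusted p = 0.00359).

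Fgf4 was listed at 0 in all E9.25 libraries, at 0.501 to 1.34 TPM in E10.5 WT and at 5.63 to 10.4 TPM in E10.5 Gli3-/- libraries (2.08 ± 0.25, adjusted p = 0.00193), and Fgf17 rose by 0.88 ± 0.19 (adjusted p = 0.0289). Msx2, a target of BMP signalling expressed in the ridge and in the anterior mesenchyme, fell by 2.25 ± 0.13 (adjusted p = 7.36e-05), from 31.8 to 43.3 TPM in WT to 6.73 to 8.98 TPM. The distal-less genes Dlx3 and Dlx5 fell by 0.99 ± 0.16 (adjusted p = 0.00921) and by 0.69 ± 0.12 (adjusted p = 0.0122), and the fourth gene that fell was Rspo2 (-0.46, adjusted p = 0.0177). Of the 7 limb mesenchyme genes 1 rose and 4 fell in the E10.5 Gli3-/- bud. Fgf10, the mesenchymal signal to the ridge, rose by 1.05 ± 0.10 (adjusted p = 0.000643), and Msx1 (by 0.86 ± 0.11), Twist1 (by 0.65 ± 0.08) and Prrx1 (by 0.56 ± 0.10) were among those that fell. The 7 genes summed to 899 to 1094 TPM in WT and to 698 to 764 TPM in Gli3-/- libraries. In the same E10.5 Gli3-/- libraries the means of Sp6 and Sp8 were below those of WT, by differences that did not pass.

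**Figure D5:**
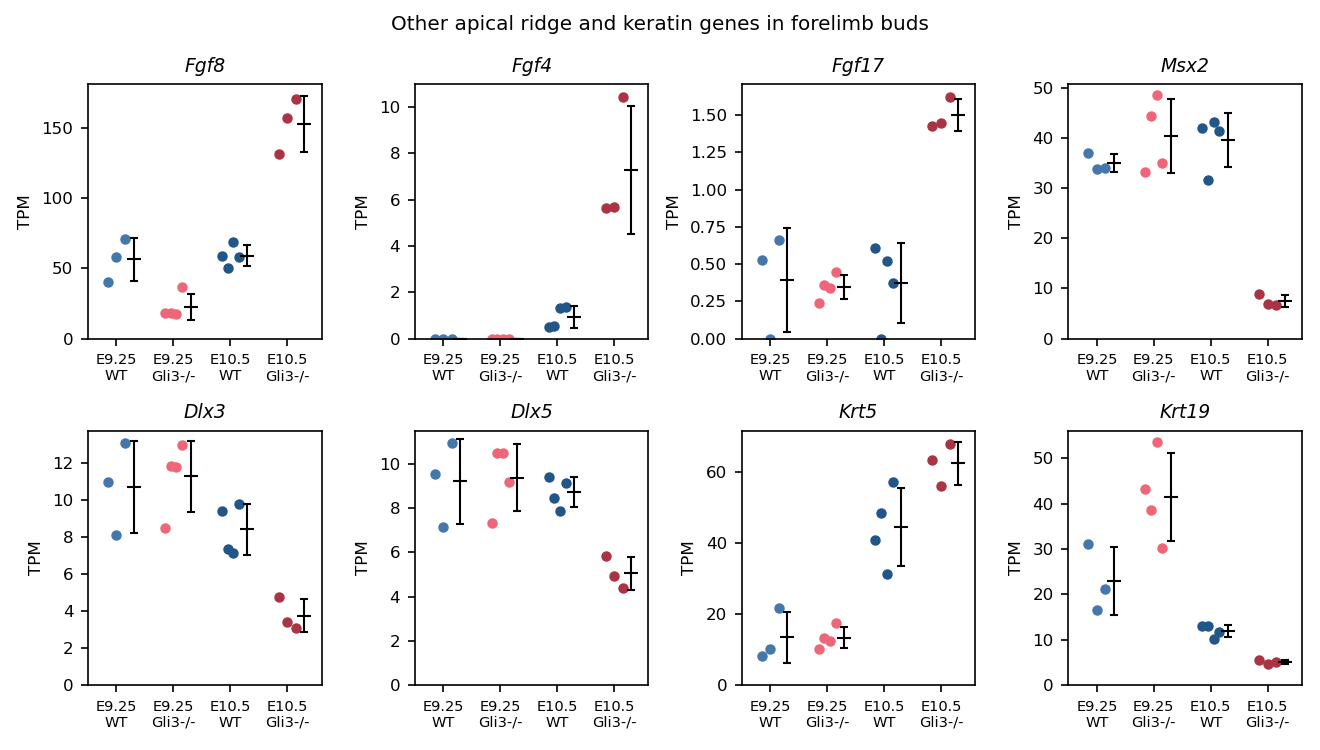
TPM of 6 other apical ridge genes and of Krt5 and Krt19 in each library (points) of the 4 groups, with the mean and SD beside the points. In E10.5 Gli3-/- libraries Fgf8, Fgf4 and Fgf17 lie above and Msx2, Dlx3, Dlx5 and Krt19 below all E10.5 WT libraries.

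WNT genes of the limb ectoderm were tested as a further group. In Gli3-/- at E10.5, 1 of 6 passed (4.77% of all genes did, 2.93% lower), Wnt4, which fell by 1.12 ± 0.13 (adjusted p = 0.00196). Wnt7a, the dorsal ectoderm signal that EN1 excludes from the ventral side, was at 13.5, 9.96 and 16.2 TPM in E9.25 WT and at 12.7, 17.1, 19.2 and 19.5 TPM in E9.25 Gli3-/- libraries (0.36 ± 0.21, adjusted p = 0.301). It fell between the stages in WT (by 0.65 ± 0.23, adjusted p = 0.0435) and in Gli3-/- (by 1.30 ± 0.18, adjusted p = 0.000586). Wnt7b (2.10 ± 0.22), Wnt4 (0.97 ± 0.19) and Wnt3 (0.89 ± 0.22), the last required for the ridge, rose between the stages in WT. These 4 calls in WT were also made with E9.25 WT replicate 2 left out.

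Other epithelial genes gave the 10 genes a background. Between the stages in WT, 14 of 24 genes of epithelial junctions, adhesion and basement membrane rose (38.1% of all genes did) and none fell, among those that rose the hemidesmosome collagen gene Col17a1 (1.68 ± 0.24) and the desmosome gene Dsp (1.68 ± 0.37). Their median difference was 0.76, against 0.34 over all genes and 0.19 for the 10 genes. With E9.25 WT replicate 2 left out, 12 of the 24 rose (33.6% of all genes), with a median of 0.64 against 0.25 over all genes and -0.08 for the 10 genes, and Dsp rose by 1.19. In Gli3-/- 6 of 22 rose and 4 fell (15.8% and 9.17% of all genes). The difference between these stage effects passed for none of the 24, where it passed for 2.13% of all genes. Of the 24, 7 were under an unadjusted p of 0.05, and the share of all genes under it is not reported here. Of 8 epithelial regulators tested in WT, 4 rose, among them Tfap2a (1.45 ± 0.30), and Tfap2c fell by 0.90 ± 0.14, with the same counts without that library. In the genotype comparison at E10.5, 1 of 24 structural genes fell (Ppl, by 0.81 ± 0.18), and 1 of 8 regulators rose (Tfap2c, by 0.62 ± 0.11), where 2.93% of all genes fell and 1.84% rose.

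The 10 genes were not a single unit within groups. After the group means were subtracted, the correlation with the mean of Epcam and Cdh1 over the 14 libraries, whose points share library and depth, was 0.939 for Trp63, 0.936 for Sp8, 0.884 for En1, 0.804 for Grhl3 and 0.803 for Grhl2. It was 0.487 for Sp6, 0.276 for Krt8 and 0.215 for Krt18, where the median over 9134 expressed genes was 0.123. Trp63 and Sp8 had a correlation of 0.986 with each other and Krt8 and Krt18 one of 0.972, whereas Sp6 and Sp8 had 0.405. The pattern was carried by whole libraries: E10.5 WT replicates 1 and 4 had all 10 genes above the group mean and replicate 3 all 10 below, by a median of 0.40, where the median of all tested genes moved by no more than 0.06 in these 3 libraries. The 10 genes most like Epcam and Cdh1 in this measure (members left out) were Klhl7 (0.976), Ccdc14, Cab39, C330007P06Rik, Mtmr6, Smc1a, Esrp1 (0.956), Itgb1, Sf3b1 and Clp1 (0.954). Esrp1, the epithelial splicing regulator, was the 1 gene among them on an epithelial list, and 2 (Cab39 and Klhl7) remained in the first 10 with every library left out in turn. When library medians were subtracted first, 0 of the 10 most similar genes were on an epithelial list.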

How the data were processed

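RNA-seq of 14 libraries was used, and the other samples of the series (chromatin assays) were not analysed here. Per the methods, the authors sequenced single reads of 100 bases and aligned them with HISAT2. The submitters' processing notes name genome build mm10, whereas the tool that made the gene tables and its annotation are not given in the sources used here. The TPM values that the authors deposited, scaled to 1000000 per library, were used for every level and test. The deposited FPKM and coverage (mean read depth per base, a signal that the authors did not scale) served only to estimate reads per library.

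TPM was summed over lines with the same gene ID, and log2(TPM + 1) was tested (two-sided) by lmFit and trended eBayes of limma 3.58.1, under R 4.3.3, fitted on the libraries compared and adjusted by Benjamini-Hochberg over every gene that reached 1 TPM in 3 or more libraries, with a threshold of 0.05. Fold changes on this scale understate those of low genes. The interaction used all 14 libraries in 1 model. Other steps used Python 3.11.15, pandas 2.3.3, NumPy 2.4.6, SciPy 1.17.1 (exact permutation tests) and matplotlib 3.10.9. The scripts were tested on simulated data.

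The 10 genes and all gene lists were chosen with earlier results of these data known. From each other list, at most 3 genes per direction and comparison were named, by size among those that passed, and Fgf8 and Wnt7a always; some genes that the rule names are not reported here. Rspo2, Fgf9 and the further values of Krt19, Gm11532 and Gm16136 were chosen after their values were seen. The genes most like Epcam and Cdh1 were taken by Pearson r among genes at 5 TPM or more throughout. Promoter sequences are from RefSeq (GRCm38.p6). The alternatives tried were median-of-ratios and quantile scaling, a filter at 5 TPM or none, 0.1 as the pseudocount, an untrended eBayes, the replicate number as a block, 1 model of all 14 libraries, and each library left out in turn. Leaving out 2 libraries together and subtracting library medians before the search for like genes were added after seeing the data.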

Additional observations from a re-analysis of the deposited data

Results flagged for a closer look

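The difference between the effects of losing Gli3 at E10.5 and at E9.25 passed for Krt18 among the 10 genes (-1.74 on the log2 scale, limma interaction). Krt18 was higher in Gli3-/- than in WT at E9.25 by 1.49 and lower at E10.5 by a difference of -0.24. The flank mesoderm sums given beside Krt18 differed between the genotypes at E9.25 and were at most 3.28 TPM at E10.5, and their part in it was not tested. All 4 flank genes also passed with a negative interaction, as did 1.65% of all genes. So did 2 of the 6 other keratins, Krt19 (-1.94, limma interaction, adjusted p = 0.00252) and Krt7 (-1.02, adjusted p = 0.031), and 3 of the 6 were positive. With E9.25 WT replicate 2 left out, Krt19 passed (-1.74, adjusted p = 0.00437), but Krt18 and Krt7 did not.

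Krt8 in the library labelled E10.5 WT replicate 3 lay far below the other 3 libraries of its group, at 4.34 on the log2(TPM + 1) scale, with a gap of 0.935 of the group's range, above the critical value of Dixon's test. It was 1 of 20 groups of 4 libraries tested, and chance flags about 1 in 20. All 10 genes were below the group mean in that library.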

How the results depend on the processing

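Of 837 values of single genes of the 10 under the alternatives, 728 kept direction and side of the threshold, 37 lost a call, 17 gained one and 55 turned in sign. At E9.25, no filter gave 0 genes called (20 as reported), the replicate block 66 and 1 model of all 14 libraries 1185, and both of the latter called 2 of the 10 genes, Krt8 and Krt18. At E10.5, no filter gave 391 genes, the replicate block 164 and the model of all 14 libraries 406, against 747, with 0 of the 10 called throughout. Between the stages in WT the replicate block called 4699 genes (7520), and the model of all 14 libraries called 5 of the 10 genes (Epcam and Grhl2 added). Between the stages in Gli3-/-, 4 of the 10 were called with no filter (Sp6 and Sp8 lost), and 4 with the replicate block or the model of all 14 libraries (Sp8 and Epcam lost). For the interaction, no filter called 0 of the 10 and the replicate block 138 genes (348). Over the epithelial reference, Sp8 and En1 at E10.5 passed with Epcam and Cdh1 as the reference (-0.301 and -0.277, exact permutation, adjusted p = 0.0381). The causes were not tested.

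Scaling moved values that were near 0. Under median-of-ratios and quantile scaling respectively, the E9.25 genotype differences turned negative for Trp63 (-0.0917 and -0.15), Sp8 (-0.10 and -0.17), Epcam (-0.13 and -0.13), Grhl2 (-0.00522 and -0.0736) and Grhl3 (-0.0504 and -0.15). Between the stages in WT they turned negative for Trp63 (-0.00527 and -0.0511), Sp8 (-0.30 and -0.39) and En1 (-0.30 and -0.48), and for Grhl2 under quantile scaling (-0.0337). En1 in Gli3-/- between the stages turned to -0.0302 under quantile scaling, and the Sp6 interaction to 0.27 and 0.21. Under both scalings Krt8 and Krt18 fell in WT and the Cdh1 call was lost, so that 25% of the called genes among the 10 were higher against 66.7% as reported. Over all genes called in WT 48% and 49% were higher, against 78.3%. In the other comparisons the share that was higher was 63% and 61.5% (80% as reported) at E9.25, 50.6% and 52.4% (63.2%) between the stages in Gli3-/-, and 37.8% and 45.3% (22.4%) for the interaction.

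Whether the replicate numbers pair the libraries was not tested. At E9.25 same-numbered libraries deviated with a correlation of -0.199 to -0.161 (mean of other pairs 0.0605), and at E10.5 of -0.18 to 0.153 (0.0181). The deposited tables number the E10.5 Gli3-/- libraries 2 to 4 where the titles have 1 to 3. By the tables' numbers the correlation was 0.0522 to 0.316 (mean of other pairs -0.0628), and the replicate block called 498 genes and 0 of the 10. With the replicate block, Sp8 (-0.0649) and En1 (-0.0985) in WT between the stages and Sp6 in the interaction (0.0247) turned in sign.

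With each library left out in turn, the number of genes called ran from 2 (without WT replicate 3) to 196 (without WT replicate 1) at E9.25, 301 (without Gli3-/- replicate 3) to 680 at E10.5, 2129 (without E10.5 replicate 2) to 4326 between the stages in Gli3-/- and 150 (without E10.5 Gli3-/- replicate 3) to 1433 (without E9.25 WT replicate 1) for the interaction, and the number of the 10 genes called from 0 to 2 at E9.25, 3 to 6 between the stages in Gli3-/- and 0 to 2 for the interaction. It was 0 at E10.5, and between the stages in WT it ran from 2 to 4, with 5139 to 8305 genes called. Values that turned in sign ran from -0.19 to 0.41 (Trp63), -0.17 to 0.36 (Sp8), -0.0572 to 0.37 (Epcam) and -0.12 to 0.36 (Grhl3) at E9.25, and from -0.28 to 0.0219 (Krt8) at E10.5. They ran from -0.16 to 0.26 (En1) and -0.25 to 0.27 (Sp8) between the stages in WT, from -0.0120 to 0.18 (En1) in Gli3-/-, and from -0.15 to 0.27 (En1), -0.26 to 0.17 (Epcam) and -0.21 to 0.24 (Sp6) for the interaction. Of the 10 genes most like Epcam and Cdh1, 4 to 8 remained, and 7 remained with library medians subtracted. With the library labelled E9.25 WT replicate 2 and Gli3-/- replicate 1 left out together, a choice made after seeing the data, 0 of the 10 genes passed at E9.25 or in the interaction (Krt18 -1.40, adjusted p = 0.0748).

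Depth bears most on Grhl3, which was at 0.857 TPM in its lowest library.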
